A study of Homo sapiens with 6 samples.

Results

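The HOX genes are described here as every row of the expression table whose symbol is HOX followed by a cluster letter from A to D and a number. The rule found 38 genes of the 20811 in the table, with 11 in cluster A on chromosome 7, 10 in cluster B on chromosome 17, 8 in cluster C on chromosome 12 and 9 in cluster D on chromosome 2. The RefSeq annotation names 39 such human genes, and HOXC4 was not analysed here. RNA was measured in HuCCT1, a human intrahepatic cholangiocarcinoma cell line grown in RPMI with fetal bovine serum. THY1 is the gene that encodes CD90. The human THY1-CMV-GFP lentivirus was put into HuCCT1/CD90+ cells and the Lenti-CMV-GFP-2A-Puro-Blank lentivirus into HuCCT1/CD90- cells, so that GFP and the CMV promoter are in both. The labels do not say whether the lines are clones or which promoter drives THY1. The lines are also written CD90+ and CD90-. Both were transduced at a multiplicity of infection of 40, and 3 libraries of total RNA were read from each, with 1 amplicon per gene. The labels do not say whether the libraries of a line came from separate cultures, so that p-values measure the spread between these libraries, which may be technical. Since bulk RNA was measured, a lower value can mean fewer cells with the RNA or less RNA per cell, and these cannot be told apart.

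HOX genes encode transcription factors that bind DNA through the homeodomain. They lie in 4 clusters in the order in which they are used along the head-to-tail axis of the embryo. Genes with the same number in different clusters, up to 13, form paralogous groups, with low numbers anterior and high numbers posterior. HOX proteins bind DNA together with cofactors of the PBX, MEIS and PKNOX families, and the clusters are held silent by Polycomb complexes, kept active by Trithorax complexes and opened from the anterior end by retinoic acid. In adult tissues each cell type keeps a part of the embryonic HOX code.

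The homeoboxes, the 180 bases that code for the 60 residues of the homeodomain, are shown for HOXB6, the member with the most reads, for HOXB2, which also fell, and for HOXB9, which rose, because near-identical stretches bear on how far an amplicon can tell members apart. They were read from GENCODE 29 transcripts on GRCh38, run 5′ to 3′ on the minus strand of the chromosome, and the 18 bases in capitals code for residues 48 to 53 of the recognition helix, the stretch by which the homeodomain was found. The homeobox of HOXB2 lies at chr17:48543533-48543712 in exon 2 of 2, that of HOXB6 at chr17:48596473-48596652 in exon 3 of 3 and that of HOXB9 at chr17:48622921-48623100 in exon 2 of 2.
HOXB2: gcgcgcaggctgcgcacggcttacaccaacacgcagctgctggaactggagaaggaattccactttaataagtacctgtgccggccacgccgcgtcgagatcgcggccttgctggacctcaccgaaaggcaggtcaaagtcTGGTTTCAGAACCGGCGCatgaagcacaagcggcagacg
HOXB6: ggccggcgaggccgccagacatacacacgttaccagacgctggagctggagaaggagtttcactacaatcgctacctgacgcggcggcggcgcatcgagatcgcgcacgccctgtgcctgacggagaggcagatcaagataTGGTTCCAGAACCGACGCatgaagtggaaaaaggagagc
HOXB9: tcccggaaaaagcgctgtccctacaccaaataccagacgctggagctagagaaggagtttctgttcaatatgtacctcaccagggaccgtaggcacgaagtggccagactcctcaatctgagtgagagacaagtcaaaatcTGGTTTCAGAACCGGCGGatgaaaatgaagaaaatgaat

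A homeobox was found in 38 of the 38 members. The 3 shown had between 111 and 119 identical bases of 180 in pairs. The closest homeobox to that of HOXB6 was the one of HOXB7, with 160 identical bases. HOXB3 and HOXB6 share annotated exons: 433 of the 2604 exonic bases of HOXB6 also lie in an exon of HOXB3 on the same strand, and 159 of the 3757 exonic bases of HOXB4 do. HOXC6 shares 378 of its 3540 exonic bases with HOXC5 or HOXC9. The positions of the amplicons are not given in the sources used here, so the values of HOXB3 against HOXB4 and HOXB6, and of HOXC6 against HOXC5 and HOXC9, are uncertain where an amplicon lies in a shared exon. The sources also do not say whether strand was used in counting, and reads of a HOX gene and of an antisense RNA over the same bases cannot then be told apart.

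As labelled, THY1 gave 435, 445 and 680 reads in CD90+ replicates 1 to 3 and 0, 1 and 0 in the CD90- replicates. The libraries held between 8587634 and 10551516 reads on genes, so that 1 read is worth 0.0948 to 0.116 RPM (reads per gene relative to the library's total). No more than 3 reads in each of a line's libraries was taken as the floor of that line, which averaged 0.299 RPM in CD90- cells and 0.332 RPM in CD90+ cells. PCR reads carry no molecular identifiers here, so floors and counting intervals cover counting error only. KRT7 and KRT19, keratins of bile duct epithelium, were high in both lines, at 3433 ± 330.3 and 3228 ± 213.7 RPM in CD90- cells and 3656 ± 321.3 and 4146 ± 214.4 RPM in CD90+ cells (SD, n = 3).

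Most HOX genes were at or under the floor in both lines. Of the 38 members, 16 had no read in any library and 24 were at the floor in both lines, leaving 14 above it and 8 with a mean of at least 1 RPM over the 6 libraries. Cluster B held 6 of the 14, cluster A 5 and cluster C 3, and cluster D none of its 9. By position, 5 of 8 anterior members (groups 1 to 3), 6 of 14 central members (groups 4 to 8) and 3 of 16 posterior members (groups 9 to 13) were above the floor. HOXD12 and HOXD9 gave the 4 reads of cluster D, 3 of HOXD12 and 1 of HOXD9, and these came from HuCCT1/CD90- libraries. At this depth the 16 members without a read were not detected, which allows up to 3 reads in each library.

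HOXB6 and HOXA3, transcription factors of the central and the anterior group, carried most HOX reads. Together they made up 86.1, 79.6 and 80.6% of the HOX reads in CD90- replicates 1 to 3, against 77.8, 76.4 and 77.2% in CD90+ replicates 1 to 3. Cluster B gave 60.2 to 62.8% of the HOX reads in CD90- cells and 60.2 to 65.2% in CD90+ libraries, and cluster A gave 33.3 to 36.3% and 31.3 to 36.4%. The shares of clusters A and B thus overlapped between the lines. Different amplicons can amplify unequally, and no test was made between genes.

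**Figure D1:**
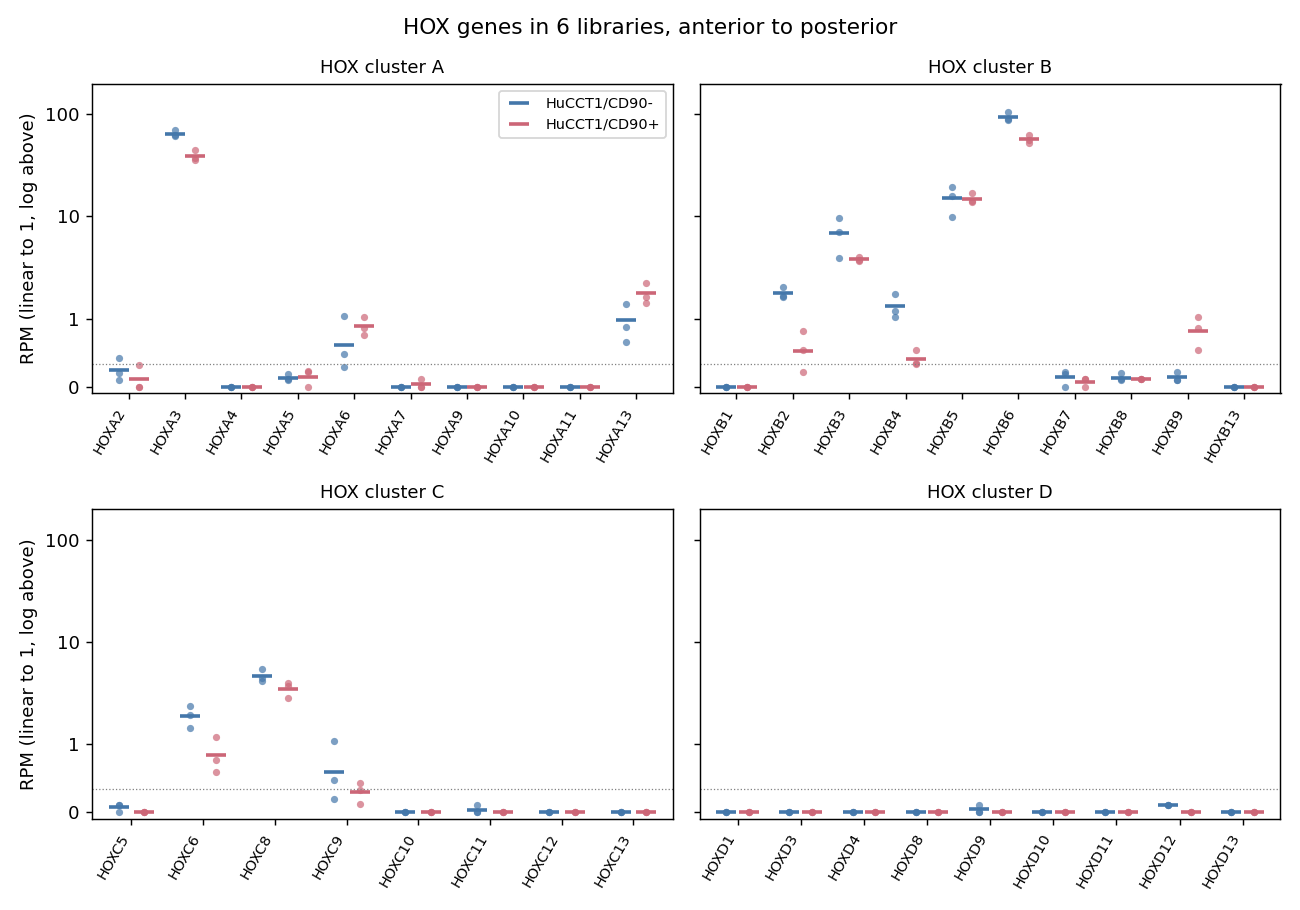
RPM of 37 HOX genes in each of 6 libraries (points) with the mean of 3 libraries per line (bars), by cluster and from anterior to posterior. The axis is linear up to 1 RPM and logarithmic above, and the dotted line marks 0.332 RPM, the mean floor of HuCCT1/CD90+ cells. HOXA3 and HOXB6 stand highest, the posterior end of cluster A is at 0 except HOXA13, and cluster D lies on or close to 0.

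The study compared cells with and without CD90, and the comparison was made for each HOX gene. Summed over the 38 members, HOX RNA was 176, 220 and 185 RPM in CD90- replicates 1 to 3, against 126, 131 and 117 RPM in CD90+ replicates 1 to 3. The lines did not overlap, and the sum was lower in each HuCCT1/CD90+ library. Differences per gene were tested with limma on log2(RPM + 1) over all 20811 genes. A gene was called with a Benjamini-Hochberg adjusted p of at most 0.05 and a fold change of at least 1.5, and the log2(RPM + 1) scale understates the change of low genes. Of the 38 members, 4 were called lower (HOXA3, HOXB2, HOXB4, HOXB6), 1 was called higher (HOXB9) and 33 were not called. Of all genes, 7.49% were called lower and 7.59% higher. Among the 8 members that averaged 1 RPM or more, 3 were called lower and 0 higher, beside 12.1% lower and 12% higher of the 12062 genes at that level. With edgeR, which tested these 8 members after its own filter, 5 were called lower and 0 higher, beside 17.3% lower and 17.5% higher of the 12070 genes it tested. By limma 1 HOX gene was higher at an unadjusted p under 0.05. With the replicate number as a block, the call of HOXA3 was the 1 that held, and 0 members were called higher.

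The median log2 fold change of the 14 members above the floor was -0.30, beside -0.0087 over the 14098 genes of the table above it. By position, 2 of 8 anterior and 2 of 14 central members were called lower, and 1 of 16 posterior members was called higher. Among members above the floor, the log2 fold change was below 0 for 5 of 5 anterior members. It was above 0 for 2 and below 0 for 4 of the 6 central members, and above 0 for 2 and below 0 for 1 of the 3 posterior members. These are counts of a few members, and no difference between positions was tested.

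HOXA3, an anterior group gene known for its part in pharyngeal organ development, fell. Its level was 62.4, 70.0 and 61.5 RPM in CD90- replicates 1 to 3, against 35.6, 44.5 and 37.5 RPM in CD90+ replicates 1 to 3. The lines did not overlap, and every HuCCT1/CD90+ library lay below the lowest HuCCT1/CD90- library. The mean was 64.6 ± 4.67 against 39.2 ± 4.67 RPM (SD, n = 3), 1.65-fold lower, with a log2 fold change of -0.71 (SE 0.105, limma adjusted p = 0.0164). The replicate block gave an adjusted p of 0.0245. Leaving out each library in turn gave adjusted p-values between 0.0172 and 0.0686, and the call held without HuCCT1/CD90+ replicate 2 and was lost without any other.

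HOXA3 lies on chromosome 7, where the median gene was higher in HuCCT1/CD90+ cells. The 400 genes of chromosome 7 with a mean of at least 10 RPM, HOX genes left out, had a median log2 fold change of 0.52, and 35.8% of them were called higher and 2% lower. The same medians were -0.010 for 565 genes of chromosome 17, 0.060 for 463 of chromosome 12 and 0.011 for 570 of chromosome 2. Of the chromosome 7 genes, 2.5% had a log2 fold change below that of HOXA3, beside 10.1% of the 8686 such genes on all chromosomes. With the median of each chromosome taken from its genes, the log2 fold change of HOXA3 was -1.22 (limma adjusted p = 0.0042). What moved the genes of chromosome 7 was not tested. For the 7 start sites that RefSeq lists for HOXA3 on GRCh38.p14, the 250 bases before the start were searched on both strands for 4 motifs. GGGCGG, the GC box, was in 4 of 7 windows and in 42.6% of all 35116 windows, and TATAAA was in 1 of 7 and in 10.7%. AGGTCA, the core of the retinoic acid receptor element, was in 0 of 7 and in 12.1%, and TGATTNAT, the PBX-HOX site, was in 0 of 7 and in 2.48%. These matches describe the letters of these windows.

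The other members of cluster A above the floor were not called. HOXA13, a posterior gene of limb and hindgut, was 0.663, 1.39 and 0.873 RPM in CD90- replicates 1 to 3, against 2.25, 1.63 and 1.41 RPM in CD90+ replicates 1 to 3. Its lines did not overlap, the HuCCT1/CD90+ libraries being higher, from 7 to 13 reads a library against 13 to 21. The log2 fold change was 0.49 (SE 0.190, limma adjusted p = 0.173), and it was 0.18 with the chromosome median removed. HOXA2 and HOXA6 had at most 10 reads in any library, with overlapping lines and log2 fold changes of -0.17 and 0.25. HOXA5 had 4 reads in each line, HOXA7 1 read in CD90+ cells, and HOXA4, HOXA9, HOXA10 and HOXA11 had none.

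**Figure D2:**
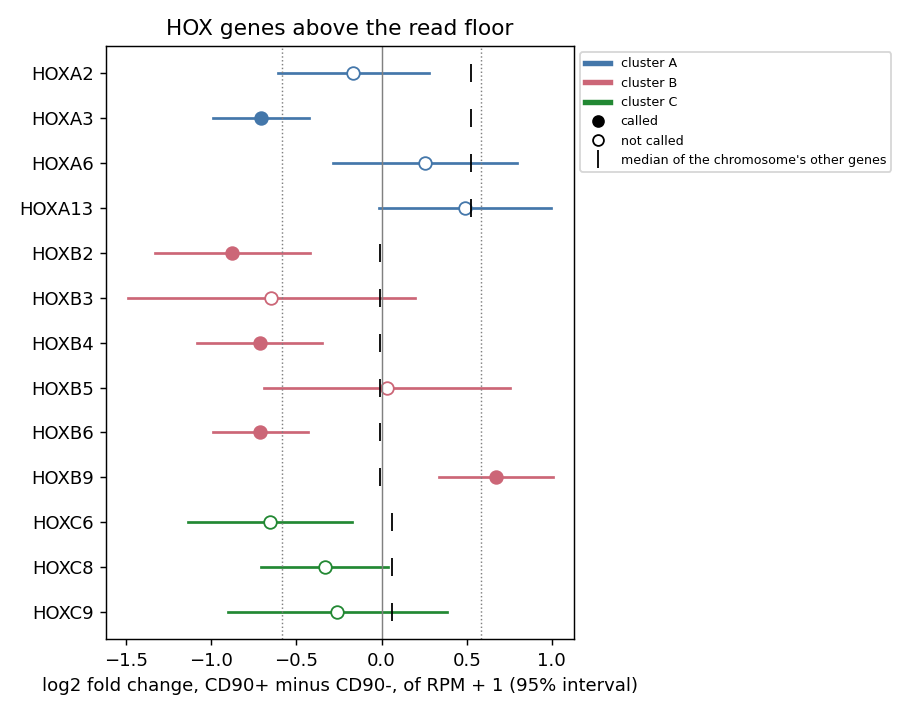
Log2 fold change (HuCCT1/CD90+ minus HuCCT1/CD90-, on log2(RPM + 1)) of 13 HOX genes above the floor, with the 95% interval of limma as a line. Filled points passed the test, dotted lines mark a fold of 1.5, and the vertical tick in each row is the median of the other genes of that chromosome with a mean of at least 10 RPM. HOXA3 lies at -0.71 while the chromosome 7 median is 0.52, and HOXB5 and HOXB6 lie at 0.030 and -0.71.

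Cluster B held 4 of the 5 called members. HOXB6, a central group gene, had the most reads of the HOX genes. Its level was 89.1, 105 and 87.8 RPM in CD90- replicates 1 to 3, against 62.4, 55.9 and 52.6 RPM in CD90+ replicates 1 to 3, with no overlap and all HuCCT1/CD90+ libraries lower. The mean was 94.1 ± 9.81 against 57.0 ± 4.97 RPM (SD, n = 3), 1.65-fold lower, with a log2 fold change of -0.71 (SE 0.104, limma adjusted p = 0.0157). The block moved the adjusted p to 0.0673 and ended the call. By limma the call was also lost without CD90+ replicate 2, at an adjusted p of 0.0628, and without CD90+ replicate 3, at 0.0593.

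HOXB5, the next gene of the cluster, was not called. Its level was 9.86, 19.5 and 15.9 RPM in CD90- replicates 1 to 3, against 14, 17 and 13.8 RPM in CD90+ replicates 1 to 3, so that the HuCCT1/CD90+ libraries lay within the range of the other line. The log2 fold change was 0.030 with a 95% interval from -0.69 to 0.75, wide enough to hold a change nearly as large as the -0.71 of HOXB6. The ratio of HOXB6 to HOXB5 RPM was 9.04, 5.41 and 5.52 in CD90- cells and 4.44, 3.29 and 3.82 in CD90+ replicates 1 to 3. The ratio of HOXA3 to HOXB6, genes on different chromosomes, was 0.700, 0.664 and 0.701 in CD90- cells and 0.570, 0.796 and 0.713 in CD90+ replicates 1 to 3. The first ratio was lower in each HuCCT1/CD90+ library, and the second overlapped between the lines. With 3 libraries against 3, an exact permutation test cannot go below 0.10, and none was run on these ratios.

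**Figure D3:**
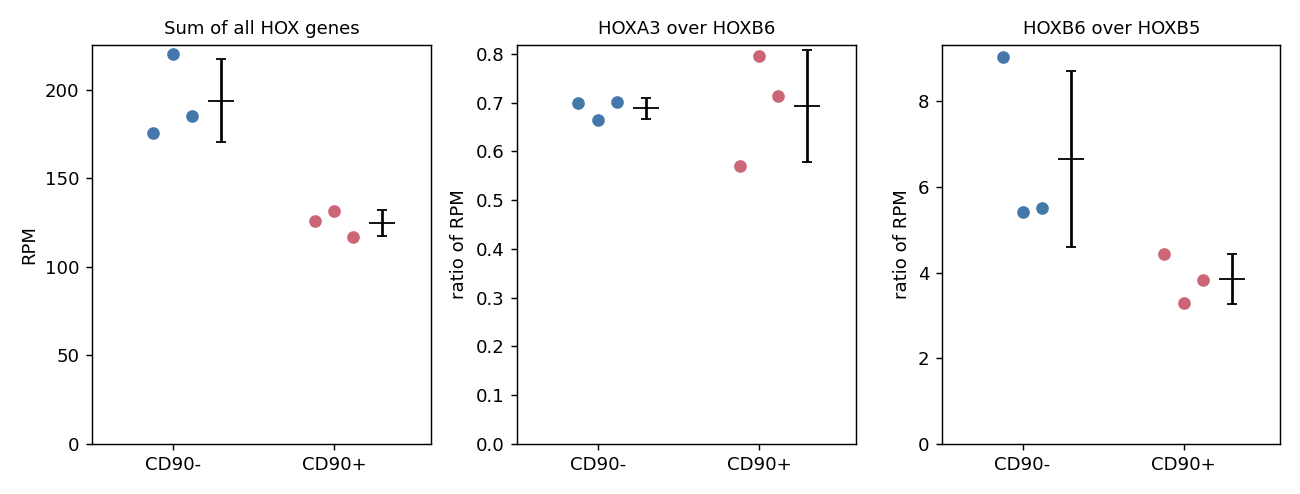
From left to right, the summed RPM of the 38 HOX genes, the ratio of HOXA3 to HOXB6 RPM and the ratio of HOXB6 to HOXB5 RPM in each library (points, with mean and SD of 3 libraries in black). The sum is 117 to 131 RPM in HuCCT1/CD90+ against 176 to 220 RPM in CD90- libraries, and the ratio of HOXA3 to HOXB6 overlaps between the lines.

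HOXB2 and HOXB4, genes of hindbrain patterning and of blood progenitors, fell from low levels. HOXB2 was 1.61, 2.03 and 1.65 RPM in CD90- replicates 1 to 3, against 0.536, 0.815 and 0.217 RPM in CD90+ replicates 1 to 3. These values rest on 17, 19 and 17 reads against 5, 7 and 2, and the lines did not overlap. Its mean was 3.38-fold lower, with a log2 fold change of -0.88 on log2(RPM + 1) (SE 0.171, limma adjusted p = 0.0335). HOXB4 was 1.04, 1.18 and 1.75 RPM in CD90- replicates 1 to 3, against 0.536, 0.349 and 0.326 RPM in CD90+ replicates 1 to 3. Its lines did not overlap either, with 11 to 18 reads a library against 3 to 5, and its mean was 3.27-fold lower, with a log2 fold change of -0.72 (SE 0.138, limma adjusted p = 0.0325). With the block the adjusted p was 0.0566 for HOXB2 and 0.128 for HOXB4, and neither call held. DESeq2 did not call HOXB4 (adjusted p = 0.0719). Without 1 library the adjusted p was 0.0374 to 0.103 for HOXB2, called without HuCCT1/CD90+ replicate 2, and 0.0409 to 0.111 for HOXB4, called without HuCCT1/CD90- replicate 3.

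HOXB9, a posterior gene, was the 1 member called higher. It had 1, 2 and 1 reads in CD90- cells and 5, 9 and 8 reads in CD90+ replicates 1 to 3, which is 0.095, 0.214 and 0.097 against 0.536, 1.05 and 0.868 RPM. Every HuCCT1/CD90+ library was higher, while HuCCT1/CD90- cells were at the floor. The ratio of the pooled reads, per read on genes, was 6.12 with a 95% counting interval from 2.08 to 24.4, and the log2 fold change on log2(RPM + 1) was 0.67 (SE 0.125, limma adjusted p = 0.0297). The block gave an adjusted p of 0.0547. Without 1 library the adjusted p was 0.0180 to 0.105, and the call held without HuCCT1/CD90+ replicate 1.

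HOXB3, an anterior gene, was not called. It was 3.89, 9.74 and 7.08 RPM in CD90- replicates 1 to 3, against 3.97, 3.73 and 3.69 RPM in CD90+ replicates 1 to 3. HuCCT1/CD90- replicate 1 lay within the HuCCT1/CD90+ range and the other two lay above it. The log2 fold change was -0.65 (SE 0.316, limma adjusted p = 0.264). It was called by edgeR (adjusted p = 0.0290) and by limma without HuCCT1/CD90- replicate 1 (adjusted p = 0.0390). HOXB7 had 4 reads in CD90- cells and 2 in CD90+ cells, HOXB8 had 4 and 3, and HOXB1 and HOXB13 had none.

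No member of cluster C was called by limma, and 1 had an unadjusted p under 0.05. HOXC6, a central gene, was 1.42, 1.93 and 2.33 RPM in CD90- replicates 1 to 3, against 1.18, 0.582 and 0.760 RPM in CD90+ replicates 1 to 3. The lines did not overlap, and the log2 fold change was -0.65 (SE 0.180, limma adjusted p = 0.0791). By edgeR with its filter it was called lower (adjusted p = 0.0304), as by limma on genes with a mean of 1 RPM or more (adjusted p = 0.0131) and with median centring (adjusted p = 0.0208), and by DESeq2, where cluster C had 0 calls, the adjusted p was 0.127. HOXC8 was 4.17, 5.35 and 4.37 RPM in CD90- replicates 1 to 3, against 2.79, 3.73 and 3.91 RPM in CD90+ replicates 1 to 3. Its lines did not overlap, with a log2 fold change of -0.33 (SE 0.140, limma adjusted p = 0.204). HOXC9 had 2 to 10 reads a library in CD90- cells and 1 to 4 in CD90+ cells. HOXC5 and HOXC11 had 2 and 1 reads, in CD90- cells, and HOXC10, HOXC12 and HOXC13 had none. In cluster D, 0 members were called by limma. HOXD12, with 1 read in each HuCCT1/CD90- library and 0 in each HuCCT1/CD90+ library, had an adjusted p of 0.00078 by limma and missed the call on its fold change, which is not given since both lines were at the floor. With equal reads within each line, its RPM varied only with library depth, so this p-value cannot be read as a sign of change. No member of cluster D passed the filter of edgeR or had an adjusted p by DESeq2, and edgeR without a filter called none.

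Several cofactors with which HOX proteins bind DNA were lower in HuCCT1/CD90+ cells. Of 9 PBX, MEIS and PKNOX genes, 5 were called lower and 0 higher by limma, beside 7.49% and 7.59% of all genes, with a median log2 fold change of -0.73. Of the 9, 8 averaged 1 RPM or more, a level at which 12.1% of genes were called lower and 12% higher. At an unadjusted p under 0.05, 2 of the cofactors were higher, and edgeR and DESeq2 each called 1 higher. MEIS1, which joins PBX and HOX proteins on DNA, was 42.4, 37.9 and 49.4 RPM in CD90- replicates 1 to 3, against 1.18, 1.75 and 1.52 RPM in CD90+ replicates 1 to 3. It was 29.2-fold lower, with no overlap of the lines and a log2 fold change of -4.15 (SE 0.138, limma adjusted p = 0.00045).

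MEIS2, PBX3 and PBX4 were also called lower, with smaller changes than MEIS1. MEIS2 was 52.8 ± 6.84 RPM in CD90- cells and 28.2 ± 3.46 RPM in CD90+ cells (SD, n = 3), with a log2 fold change of -0.88 (limma adjusted p = 0.0199). PBX3 was 7.79 ± 1.10 against 4.29 ± 0.349 RPM and PBX4 10.7 ± 0.933 against 5.70 ± 1.11 RPM, with adjusted p-values of 0.0186 and 0.0264. With the block 3 calls held, MEIS1 and PBX3 among them, and the adjusted p was 0.0945 for MEIS2 and 0.0649 for PBX4. PKNOX1, a relative of the MEIS genes, was 22.3 ± 4.25 against 43.9 ± 12.1 RPM and was not called by limma (adjusted p = 0.0816), while edgeR (adjusted p = 0.00088) and DESeq2 called it higher. PBX2 was 47.7 ± 7 against 37.8 ± 5 RPM, MEIS3 1.05 ± 0.261 against 1.93 ± 0.461 RPM, and PKNOX2 was at the floor.

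**Figure D4:**
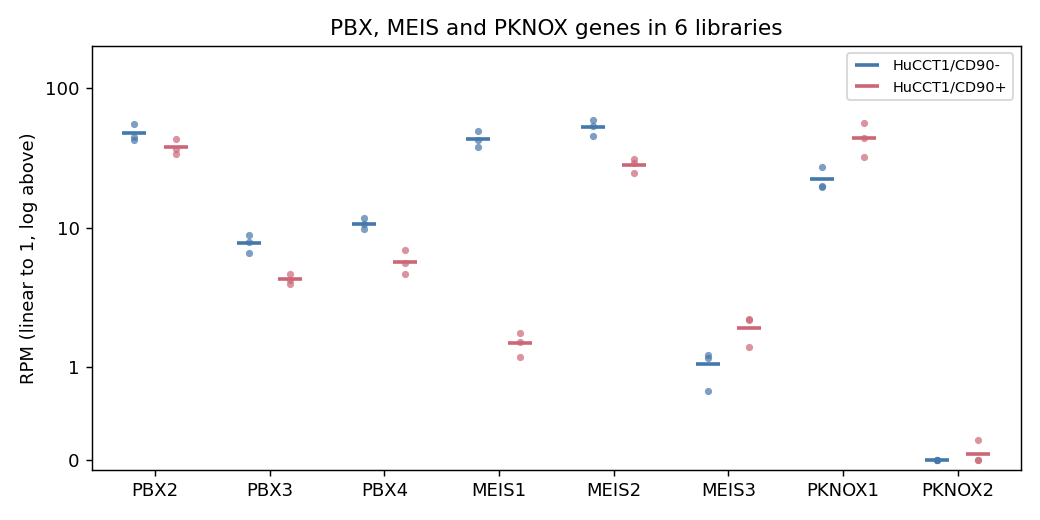
RPM of 8 PBX, MEIS and PKNOX genes in each of 6 libraries (points) with the mean of 3 libraries per line (bars), on an axis that is linear up to 1 RPM and logarithmic above. MEIS1 lies at 37.9 to 49.4 RPM in the CD90- and at 1.18 to 1.75 RPM in the CD90+ libraries.

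Of 17 genes of retinoic acid signalling, which opens HOX clusters in the embryo, 5 were called lower and 1 higher, with a median log2 fold change of -0.54, beside 7.49% lower and 7.59% higher of all genes. Of the 17, 11 averaged 1 RPM or more, a level at which 12.1% of genes were called lower and 12% higher. DHRS3, which turns retinaldehyde back to retinol, fell from 127 ± 8.14 to 57.0 ± 11.4 RPM (SD, n = 3), and CYP26B1, which degrades retinoic acid, from 9.14 ± 0.254 to 0.591 ± 0.273 RPM. ALDH1A3, which makes retinoic acid, fell from 122 ± 7.85 to 64.2 ± 7.64 RPM, and ALDH1A2, of the same activity, from 0.872 ± 0.270 to 0.0743 ± 0.0645 RPM, which is at the floor. The receptor gene RARB fell from 34.5 ± 5.87 to 19.2 ± 1.27 RPM. CRABP2, a carrier of retinoic acid, rose from 102 ± 11.9 to 160 ± 12.2 RPM. The fall thus held genes that make and genes that remove retinoic acid. With the block the adjusted p was 0.10 for RARB and 0.0558 for ALDH1A2, which were then not called.

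Among 31 genes of the chromatin complexes that hold or open HOX clusters, 3 were called lower and 2 higher, beside 7.49% and 7.59% of all genes. Most of the 31 averaged 1 RPM or more, a level at which 12.1% of genes were called lower and 12% higher. Of 11 genes of Polycomb repressive complex 2, RBBP4, a histone-binding subunit, fell from 214 ± 12.3 to 118 ± 7.78 RPM (SD, n = 3) and PHF19, which recruits the complex, from 95 ± 10.8 to 41.8 ± 5.23 RPM. Its catalytic subunit EZH2 was 30.3 ± 4.86 against 38.8 ± 4.10 RPM and was not called. Of 12 genes of Polycomb repressive complex 1, PHC2 fell from 11.4 ± 2.84 to 0.955 ± 0.130 RPM and its relative PHC3 rose from 32.8 ± 3.96 to 56.2 ± 5.21 RPM. Of 8 Trithorax and H3K27 demethylase genes, KDM6A, a demethylase, rose from 0.235 ± 0.0745 to 1.14 ± 0.0505 RPM, the lower level being at the floor. Adjusted p-values of these 5 genes lay between 0.0019 and 0.0176, and with the block their calls held. With the chromosome median removed, the log2 fold change was -0.54 for RBBP4 and 0.57 for PHC3. Both then fell short of the fold needed for a call, while PHF19, PHC2 and KDM6A stayed called. With each library left out in turn, the adjusted p reached 0.0667 for PHC3 and at most 0.0398 for the others. Of the relatives of the HOX genes, 8 ParaHox and EVX genes, limma called 0, with 1 higher at an unadjusted p under 0.05, and none passed the filter of edgeR.

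Genes beside the clusters were compared to see whether HOX genes moved with their surroundings. Of 14 neighbouring genes in the table, 2 were called lower and 0 higher by limma, beside 7.49% and 7.59% of all genes. At a mean of at least 1 RPM, which 11 of the 14 had, the shares were 12.1% and 12%. At an unadjusted p under 0.05 without a limit on the fold, 5 neighbours were higher. The share of all genes at that limit is not given here, and with a fold of at least 1.5 as well 2110 of 20811 were higher. Of the neighbours edgeR called 2 higher, beside 17.5% of the genes it tested, and DESeq2 called 3. With the block 1 was called lower and 1 higher, JAZF1 beyond HIBADH on chromosome 7, with a log2 fold change of 0.73. Both that fell lie near cluster C, beyond the genes that flank it directly, CALCOCO1 and SMUG1. These had log2 fold changes of -0.28 and 0.49, and neither was called. CBX5, a heterochromatin protein gene, fell from 160 ± 37.4 to 69.7 ± 16.7 RPM (SD, n = 3, limma adjusted p = 0.0469, 0.0718 with the block), and ATP5G2, a subunit gene of the mitochondrial ATP synthase, from 1033 ± 42.0 to 460 ± 37.4 RPM (adjusted p = 0.0018). Beside cluster A, SKAP2 and, beyond EVX1, which had no read, HIBADH had log2 fold changes of 0.22 and 0.44, where HOXA3 had -0.71, and neither was called. Beside cluster B, SKAP1 and, beyond TTLL6, CALCOCO2 had log2 fold changes of 0.38 and -0.63, and neither was called. Of 7 noncoding genes of the clusters with rows of their own, 0 were called by limma, 0 had an unadjusted p under 0.05, and edgeR and DESeq2 called 0. HOTAIRM1, in cluster A, was 2.67 ± 0.464 against 2.54 ± 0.306 RPM.

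Marker genes of other cell types also moved with the line. The counts below stand beside 7.49% of all genes called lower and 7.59% called higher. Of 6 fibroblast markers 5 were called lower, and their summed level was 41.8 to 64.9 RPM in CD90- cells and 20.3 to 24.7 RPM in CD90+ libraries, with COL1A1 at 13.5 ± 2.21 and 14.2 ± 0.186 RPM (SD, n = 3). Of 5 endothelial markers 1 was called lower, with sums of 14.5 to 23.2 against 0.643 to 1.63 RPM, and KDR and CLDN5 were at or near 0. Of 6 leukocyte markers 1 was called lower and 1 higher, with sums of 120 to 144 against 88.1 to 105 RPM. CD14 fell from 80.8 ± 10.1 to 4.32 ± 0.195 RPM (SD, n = 3) and CD68 rose from 50.8 ± 4.50 to 92.2 ± 8.39 RPM, and PTPRC was at or near 0. Of 7 hepatocyte markers 2 were called lower and 1 higher, with sums of 3.88 to 5.99 against 6 to 12.4 RPM. HNF4A made up most of the CD90+ sum, at 8.75 ± 3.45 RPM against 0.10 ± 0.097 RPM in CD90- cells (SD, n = 3), and ALB at or near 0. The cholangiocyte list of 8 had 2 called higher and 1 lower, with sums of 6498 to 7357 against 7946 to 8839 RPM. KRT7 and KRT19 made up most of these sums, while the log2 fold changes of the 8 genes ran from -4.41 to 3.62. With the block 2 fibroblast and 1 hepatocyte marker stayed called lower, and the other marker calls held. The part of these markers in the HOX differences was not tested.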

How the data were processed

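Total RNA of 3 HuCCT1/CD90- and 3 HuCCT1/CD90+ libraries, grouped by the sample labels, was amplified (Ion AmpliSeq Transcriptome panel) and sequenced on an Ion Torrent instrument. Reads on each amplicon were counted by the authors (ampliSeqRNA plugin, Torrent Suite), who deposited RPM values, reads relative to the library's total, in a table of 20811 genes. The submitters' processing notes name hg19 and the Transcriptome Analysis Console, and the authors' methods name limma. As 1 amplicon stands for a gene, isoforms without it are not seen. No correction for length was needed.

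RPM was taken to log2(RPM + 1) and tested two-sided in R 4.3.3 with limma 3.58.1 (lmFit, eBayes) over 20811 genes, with Benjamini-Hochberg adjustment. Adjusted p-values are limma's unless another tool is named. Whole reads were recovered for 100% of values within 0.1 read and tested with edgeR 4.0.16 (quasi-likelihood, filterByExpr or no filter) and DESeq2 1.42.0 as alternatives. The scripts were tested on simulated data. Counting intervals are exact 95% intervals.

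Libraries carry replicate numbers 1 to 3. After the mean of each line was taken off, libraries with the same number correlated at r = 0.21, 0.32 and 0.18, and differently numbered pairs at -0.29 to 0.07, so a fit with the number as a block was run. As the mean of 3 libraries was taken off, higher values in some pairs force lower values in others, and these correlations are not independent. The labels do not say what the replicate numbers mark.

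Members with a call or with a mean of at least 1 RPM in either line are given in full, as are genes called in the lists. List genes without a call were named beside these after their values were seen. HOX members, gene lists and the rule were chosen with earlier results of these data known. Older symbols were matched through unique RefSeq synonyms. Neighbours and chromosomes came from RefSeq (GRCh38.p14), without coordinates since the values rest on hg19. Homeobox positions come from GENCODE 29 on GRCh38. HOXC4, 1 of 9 Trithorax genes, 1 of 15 neighbours and 16 of 23 noncoding genes were not analysed here. The other alternatives were offsets of 0.1 and 5 RPM, a minimum mean of 1 RPM, quantile normalization, median centring, eBayes with trend and robust settings, the chromosome median removed, an unadjusted p, a fold of 2, and each library left out in turn. Some genes and sequences are not reported here, though they stay in the counts and sums.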

Additional observations from a re-analysis of the deposited data

How the results depend on the processing

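MEIS1 kept its direction and call under each of the 19 alternatives run for it. The count of 4 HOX genes called lower was 2 with an offset of 5 RPM, 1 with the replicate block (HOXA3), 0 at a fold of 2, and 0 to 2 with 1 library left out. Without HuCCT1/CD90+ replicate 3 limma called 0 HOX genes, with 5 lower and 1 higher at an unadjusted p under 0.05. The 1 HOX gene called higher, HOXB9, was not called (0) with an offset of 5 RPM, with the block, by DESeq2 and at a fold of 2. At a minimum mean of 1 RPM and by edgeR with filterByExpr the count was also 0, as HOXB9 was filtered out, and edgeR without a filter called it (adjusted p = 0.0139). The count was 0 to 1 with 1 library left out. Without a limit on the fold, 6 HOX genes were lower and 1 higher at an unadjusted p under 0.05. With all 6 libraries edgeR called 5 HOX genes lower and DESeq2 3 (HOXA3, HOXB2 and HOXB6). HOXB5, which was not called, turned from 0.030 to -0.0060 by edgeR with filterByExpr, to -0.0048 by edgeR without a filter, and lay between -0.23 and 0.23 with 1 library left out.

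The 5 cofactors called lower were 3 with an offset of 5 RPM, 3 with the block, 2 at a fold of 2 and 2 to 3 with 1 library left out. The 5 retinoic acid genes called lower were 3 with the block, 2 at a fold of 2 and 2 to 6 with 1 library left out, and 7 by DESeq2, by edgeR without a filter, with median centring and at an unadjusted p. The 1 called higher was 2 by edgeR with filterByExpr and by DESeq2. Fits without a library have fewer samples. Over all genes, where 1580 were called higher and 1558 lower, the block gave 1091 and 1011, a fold of 2 gave 952 and 922, and leaving out 1 library gave 960 to 1174 and 908 to 1240. No other call on a named HOX gene or cofactor changed with the block than those given beside their values. With an offset of 0.1 RPM the count of 4 held HOXD12, on 3 reads in all, and not HOXB2 (adjusted p = 0.0660). At a minimum mean of 1 RPM it held HOXC6, and HOXB4 was filtered out. The cause of these changes was not tested. At the depth read here, 24 HOX genes with at most 3 reads a library could not be compared.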
